A study of Rattus norvegicus with 4 samples.

Results

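The enzymes described here are those by which liver oxidises, reduces, hydrolyses and conjugates drugs and other foreign or steroid molecules. They were chosen by gene name alone: cytochromes P450 of families Cyp1, Cyp2 and Cyp3 with their reductase Por, flavin monooxygenases (Fmo), aldehyde dehydrogenases (Aldh), aldo-keto reductases (Akr), epoxide hydrolases (Ephx), cytosolic and microsomal glutathione transferases (Gst, Mgst), sulfotransferases (Sult) and UDP-glucuronosyltransferases (Ugt). The rule took 84 of the 7688 spots on the array, which belong to 42 listed cDNA clones, and 38 of these clones had a ratio on all 4 arrays. Each of 4 arrays set liver RNA from 1 female Fischer rat, dosed daily with ciprofibrate at 50 mg per kg of body weight over 60 days, against 1 pool of liver RNA from 5 control rats. The comparison asks, by the title of the series, which genes respond to ciprofibrate.

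Drug metabolism in liver runs in stages. Cytochromes P450 insert oxygen with electrons that Por passes to them, aldehyde dehydrogenases, aldo-keto reductases and epoxide hydrolases handle the reactive products, and transferases then attach glutathione, sulfate or glucuronic acid so that the product can leave the cell. Several of these enzymes differ between the sexes in rat liver: Cyp2c12 and the Sult2a hydroxysteroid sulfotransferases are known as female-predominant. Ciprofibrate is a fibrate that activates the nuclear receptor PPARα, and fibrates are best known for inducing fatty acid oxidation and the Cyp4a hydroxylases, which are not among these enzymes.

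All values are log2 ratios, with each array centred on its median, so that 0 is the level of the typical clone. Which dye each RNA carried is not given in the labels, so the sign of the ratio is not settled. Of 13 measured clones of genes that peroxisome proliferators are known to induce, 8 had a positive and 5 a negative mean, and the 4 that passed the threshold were 3 positive and 1 negative. On that narrow basis, and since the labels put the treated RNA in channel 1, positive is taken as probably higher after ciprofibrate. Rats carry no numbers in the labels. Each array is assumed to hold another animal, and p-values measure the spread between these arrays, with the spread among control rats left out. Replicate 2 stood apart: over the 4704 clones tested its correlation across clones with the other arrays was 0.468 to 0.532, against 0.683 to 0.758 among the other 3. Values without it are given for many of the results that rest on it. The inferred slide layout has 8 printing blocks in 2 columns, and the left column had the higher median ratio on every array, by 0.12 to 0.53. Among the 3 positive calls used to read the sign, Acsl1 and Ech1 lay on the left and Me1 on the right. With a smooth surface over the slide positions subtracted, 2 of those 13 clones were positive calls, Me1 (0.39) and Ech1 (0.31). Cpt1a (-0.35) was then the 1 negative call, and Acsl1 was at 0.08 without a call. The reading of the sign thus remains uncertain.

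Among the 38 enzyme clones, 2 passed the threshold with a positive mean ratio and 2 with a negative one (limma, Benjamini-Hochberg adjusted p under 0.05, over all clones). The positive clones were those of the glutathione transferases Gstm7 and Gstp1, and the negative ones those of a Sult2a sulfotransferase and of the steroid reductase Akr1c14. The background of calls was higher than this: 13.6% of all tested clones were positive and 15.0% negative calls, against 5.26% of the enzyme clones in each direction. The median size of the mean ratio was 0.16 among the enzyme clones and 0.24 among all clones. Their median SD over the arrays was 0.20, near the 0.21 of all clones, so the ratios of most enzymes were as small as the spread between arrays. Of the 38 clones, 20 had the same sign on all 4 arrays, a share of 52.6%, which is that of all clones (52.8%). Duplicate spots of an enzyme clone within a block differed by a median of 0.07 to 0.11 per array over 35 pairs, but by up to 0.83, and the spots of Gstt1 were at 0.19 and -0.39 on replicate 3.

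**Figure D1:**
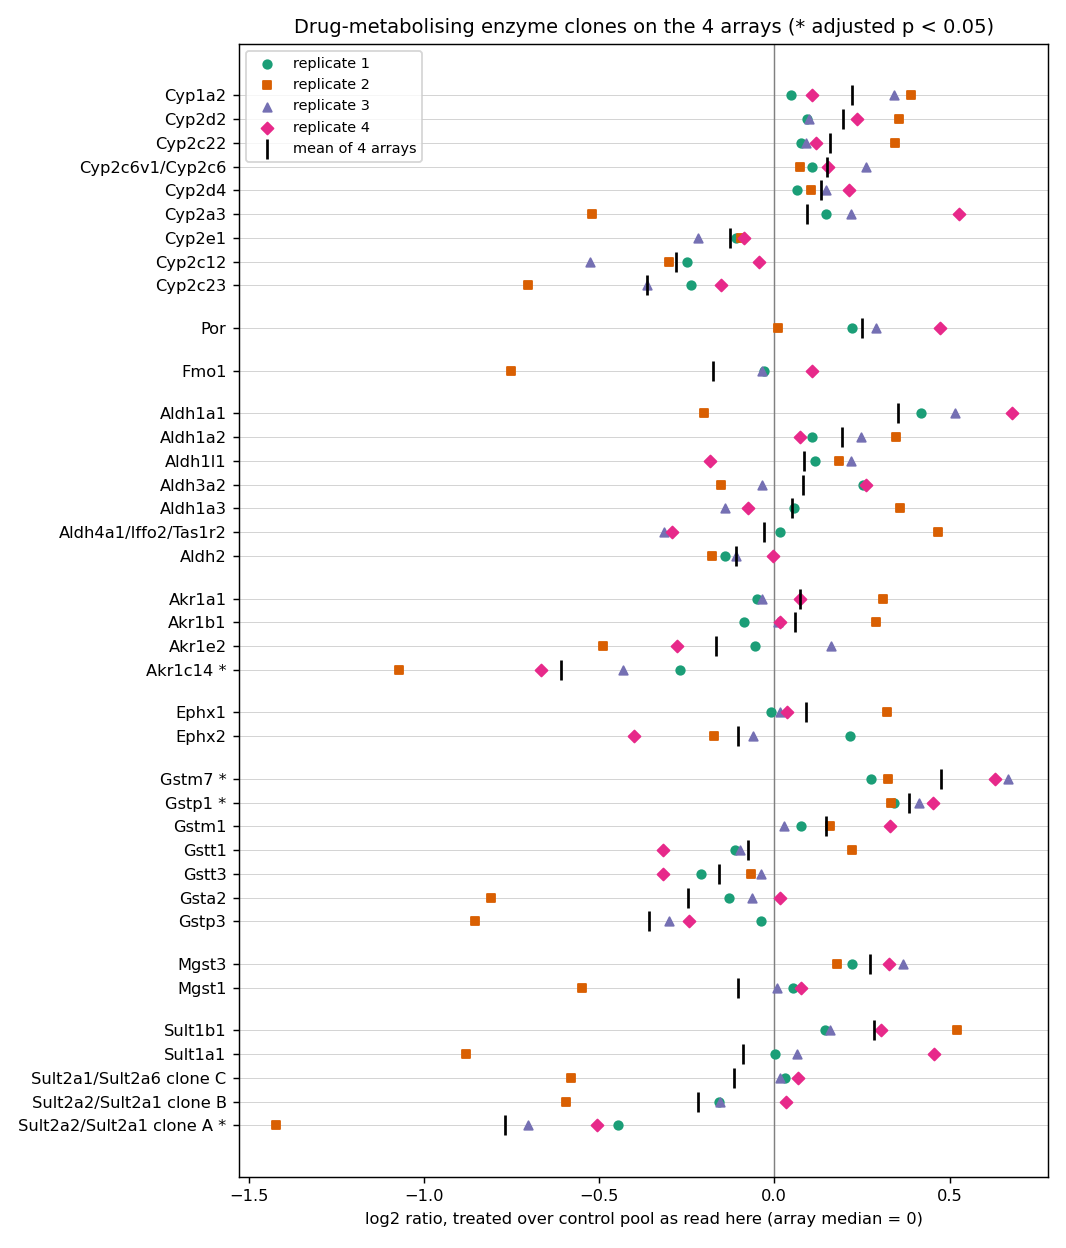
Log2 ratio of each of the 38 enzyme clones on each of the 4 arrays (coloured symbols) with the mean (black bar), by enzyme family; the array median is 0 and an asterisk marks an adjusted p under 0.05 (limma). Most means lie within 0.3 of 0, and replicate 2 is often the most distant point, as for Sult1a1 at -0.88 and Gsta2 at -0.81.

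Of the 7 cytosolic glutathione transferase clones measured, 2 were positive calls, none was a negative one and 5 did not pass. Over all clones 13.6% were positive and 15.0% negative calls. The mu-class enzyme Gstm7 was at 0.28, 0.32, 0.67 and 0.63 on replicates 1 to 4. It was above 0 on every array, higher on replicates 3 and 4 than on the others, and both of its spots behaved alike. Its mean was 0.47 ± 0.20 (SD, n = 4), a 1.39-fold difference (limma adjusted p = 0.0205). Gstp1, the pi-class form that is scarce in normal adult rat hepatocytes and widely used as a marker of early liver lesions in that species, was at 0.34, 0.33, 0.41 and 0.45. These are the closest 4 values of any enzyme called here, and no array stood apart. The mean was 0.39 ± 0.06 (SD, n = 4), a 1.31-fold difference (limma adjusted p = 0.0223). Both clones lie in the left blocks, and with a smooth surface over the slide positions subtracted neither was called, at 0.13 ± 0.07 for Gstm7 and 0.10 ± 0.04 for Gstp1 (limma adjusted p = 0.218 and 0.281). The call of Gstm7 also ended with block medians subtracted (0.26, limma adjusted p = 0.0664) and without replicate 3 (0.41, 0.110) or 4 (0.42, 0.0873). That of Gstp1 ended at 1 of its 2 spots taken alone (0.28, limma adjusted p = 0.0611) and without replicate 1 (0.40, 0.0642), 3 (0.38, 0.117) or 4 (0.36, 0.0973).

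The bases before the start of both genes are shown because these were the positive calls of the family and because the antioxidant response element, the site through which Nrf2 acts on many glutathione transferase genes, can be looked for in them. The sequences are the 250 bases upstream of the start in RefSeq's GRCr8 annotation, 5′ to 3′ on the gene's strand. Gstp1 is at chr1:210769706-210769955 on the minus strand and Gstm7 at chr2:198260320-198260569, also on the minus strand. Capitals mark matches to any of 4 motifs, searched on both strands with no overlap among the matches shown. TGACNNNGC is the core of the antioxidant response element. The core of many nuclear receptor sites was searched as AGGTCA. For the dioxin response element the core GCGTG was used, and a match on the other strand appears as its reverse complement. The TATA box was searched as TATAAA.
Gstp1: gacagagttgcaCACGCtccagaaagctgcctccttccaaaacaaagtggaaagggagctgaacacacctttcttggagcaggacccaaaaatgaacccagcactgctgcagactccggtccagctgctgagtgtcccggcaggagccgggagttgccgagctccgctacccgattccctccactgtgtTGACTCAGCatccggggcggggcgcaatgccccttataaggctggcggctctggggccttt
Gstm7: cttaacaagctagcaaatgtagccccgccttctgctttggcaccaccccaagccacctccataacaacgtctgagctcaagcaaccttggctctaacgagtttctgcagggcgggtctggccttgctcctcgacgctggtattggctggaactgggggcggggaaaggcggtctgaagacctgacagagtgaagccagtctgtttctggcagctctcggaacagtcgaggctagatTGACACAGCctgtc
In Gstp1 the match TGACTCAGC spans bases 61 to 53 before the start, and in Gstm7 the match TGACACAGC spans bases 14 to 6. Such a match was found in 3 of the 37 genes (of 45 listed for the enzyme clones) with an entry, the third being Aldh1a2, and in 10.1% of all 33469 windows of this length. A match describes these letters only. Nfe2l2, the gene of Nrf2 itself, passed with a negative mean of -0.36 ± 0.14 (SD, n = 4, limma adjusted p = 0.0344). That is a ratio of RNA, and the activity of Nrf2 was not tested.

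The other glutathione transferases did not pass the threshold. Gsta2, an alpha-class enzyme abundant in hepatocytes, was at -0.13, -0.81, -0.06 and 0.02 on replicates 1 to 4. Its mean of -0.25 ± 0.38 (SD, n = 4, limma adjusted p = 0.237) came from replicate 2, without which it was -0.06 ± 0.07 (SD, n = 3). Gstp3, a second pi-class gene, was at -0.04, -0.85, -0.30 and -0.24, so it was below 0 on every array while Gstp1 was above 0 on every array. The mean of Gstp3 was -0.36 ± 0.35 (SD, n = 4, limma adjusted p = 0.0908), and without replicate 2 it was -0.19 ± 0.14. With the position surface subtracted Gstp3, printed on the right, no longer had one sign on every array, at 0.02, -0.77, -0.05 and 0.03. Its mean was then -0.19 ± 0.39, and 0.0008 without replicate 2, while Gstp1, printed on the left, was at 0.10 ± 0.04 over all arrays. Gstm1, the main mu-class form of liver, was at 0.15 ± 0.13, positive on every array, and with the position surface subtracted at -0.12 ± 0.07, negative on every array. Its value rests on a pair of spots in block 7, since the other pair listed under the same clone, in block 4, gave no ratio on any array. The theta-class clones Gstt3 (-0.16 ± 0.13) and Gstt1 (-0.08 ± 0.22) were near 0. Clones of one class can share long stretches of sequence, so how far each spot bound its relatives is not known here.

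The microsomal glutathione transferases, membrane enzymes unrelated in fold to the cytosolic ones, gave no call. Mgst3, which has only 1 spot, was at 0.22, 0.18, 0.37 and 0.33, above 0 on every array, with a mean of 0.27 ± 0.09 (SD, n = 4, limma adjusted p = 0.0638). It passed the threshold without replicate 2 (0.31, limma adjusted p = 0.0326) but was at 0.10 ± 0.04 with the position surface subtracted. Mgst1, the abundant liver form, was at 0.05, -0.55, 0.01 and 0.08. Replicates 1, 3 and 4 thus lay close to 0 and replicate 2 far below them, which makes the mean of -0.10 ± 0.30 a poor description of any single array.

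Sulfotransferases gave the largest negative ratio among the enzymes. Of 5 measured clones, 1 was a negative call and 4 did not pass, where 15.0% of all clones were negative calls. The 3 Sult2a clones are each listed under a pair of genes that the annotation could not tell apart, and are called A, B and C here: A and B for Sult2a2 and Sult2a1, C for Sult2a1 and Sult2a6. These enzymes sulfate hydroxysteroids such as dehydroepiandrosterone and bile acids. Clone A was at -0.44, -1.42, -0.70 and -0.51 on replicates 1 to 4. It was below 0 on every array, and replicate 2 lay lowest. The mean was -0.77 ± 0.45 (SD, n = 4), a 1.70-fold difference (limma adjusted p = 0.0166), and without replicate 2 it was -0.55 ± 0.14 (SD, n = 3, limma adjusted p = 0.00991). The call held without each array in turn and ended with the position surface subtracted, at -0.57 ± 0.52 (limma adjusted p = 0.0869), or with the median of each block subtracted (-0.59, 0.0647).

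Clone B, which carries the same gene names, had spots in a pair of blocks that gave opposite ratios. In block 8, the block of clone A, its values were -0.46, -1.62, -0.57 and -0.41 on replicates 1 to 4. The -1.62 averages spots at -1.20 and -2.03, the widest gap between duplicate spots among the enzyme clones (0.83). In block 5 the values of clone B were 0.15, 0.43, 0.26 and 0.48. The sets of 4 arrays did not overlap, and each of the 4 spots kept its sign on all arrays. With the blocks kept apart, an alternative chosen after seeing the data, block 8 was at -0.77 ± 0.57 (SD, n = 4, limma adjusted p = 0.0282) and block 5 at 0.33 ± 0.15 (limma adjusted p = 0.0467), and neither passed with the position surface subtracted (-0.68, adjusted p = 0.0677, and 0.23, adjusted p = 0.0761). The block means differed by 1.09, against a median of 0.35 over the 30 listed clones measured in more than 1 block, of which 4, this one included, differed by as much. Averaging all 4 spots gave -0.22 ± 0.27 for clone B, a value that no single spot shows. Without replicate 2 that average was -0.09 ± 0.11. Clone C, in block 5, was at 0.03, -0.58, 0.02 and 0.07, so replicate 2 alone was low.

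**Figure D2:**
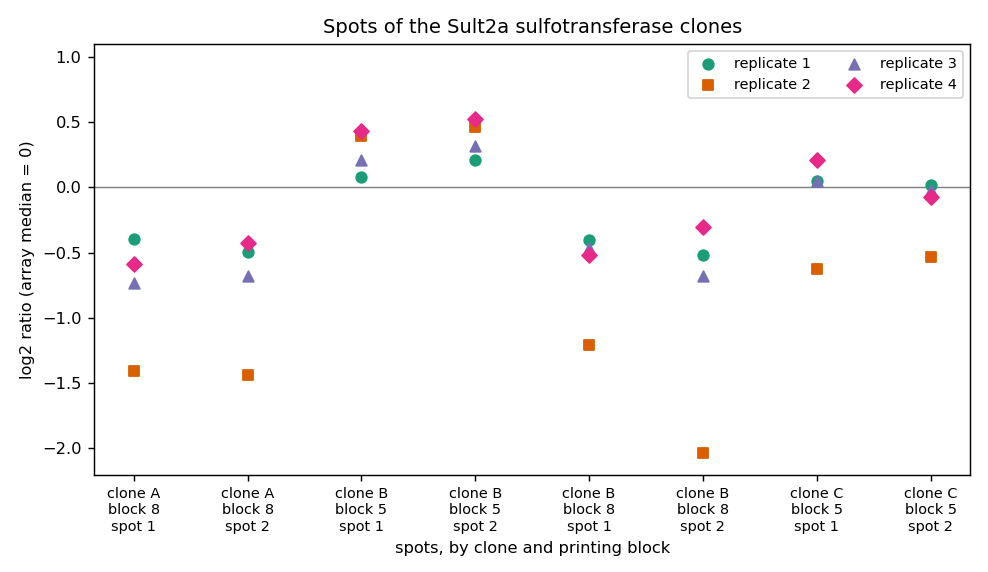
Log2 ratio of each of the 8 spots of the 3 Sult2a clones on the 4 arrays (symbols), by clone and printing block; the array median is 0. Both spots of clone A and the block 8 spots of clone B are negative on every array, with replicate 2 lowest, while the block 5 spots of clone B are positive on every array.

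The 250 bases before the start of Sult2a2 are given as the gene named by both clones A and B. They lie at chr1:85104533-85104782 on the minus strand of GRCr8 (RefSeq), 5′ to 3′ on the gene's strand, with TATAAA matches in capitals.
Sult2a2: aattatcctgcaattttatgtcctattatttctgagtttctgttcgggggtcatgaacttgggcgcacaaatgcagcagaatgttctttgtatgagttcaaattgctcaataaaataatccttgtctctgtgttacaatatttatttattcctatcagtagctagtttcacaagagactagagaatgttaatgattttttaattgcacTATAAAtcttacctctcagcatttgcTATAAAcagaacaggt
None of the other 3 motifs searched above was found in this window. TATAAA was found in 11 of the 37 genes, Sult2a1, Sult2a2 and Sult2a6 among them, and in 12.9% of all windows.

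The remaining sulfotransferases were not called. Sult1b1, which acts on thyroid hormones and small phenols, was at 0.15, 0.52, 0.16 and 0.31, positive on every array, with a mean of 0.28 ± 0.17 (SD, n = 4, limma adjusted p = 0.0790). With the position surface subtracted it was at 0.32 ± 0.16 (limma adjusted p = 0.0546). Its ratio did not shrink as those of Gstm7 and Gstp1 did, but it is printed on the right and they on the left, where ratios ran higher. Sult1a1, the main phenol sulfotransferase, was at 0.00, -0.88, 0.06 and 0.45. Its SD of 0.56 was the widest among the 38 clones, and replicates 2 and 4 lay on opposite sides of 0. The mean of Sult1a1 was -0.09, and 0.17 without replicate 2.

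Of 4 measured aldo-keto reductases, 1 was a negative call and 3 did not pass, where 15.0% of all clones were negative calls. Akr1c14, the 3-alpha-hydroxysteroid dehydrogenase of rat liver, which works on steroids and bile acid precursors, was at -0.27, -1.07, -0.43 and -0.67. It was below 0 on every array and lowest on replicate 2. The mean was -0.61 ± 0.35 (SD, n = 4), a 1.53-fold difference (limma adjusted p = 0.0204), and without replicate 2 it was -0.46 ± 0.20 (SD, n = 3, limma adjusted p = 0.0199). The call ended without replicate 4 (-0.59, limma adjusted p = 0.0677), with block medians subtracted (-0.43, 0.0817) and with the position surface subtracted (-0.53 ± 0.37, 0.0593). Akr1e2, a reductase of 1,5-anhydrofructose, was at -0.06, -0.49, 0.16 and -0.28, with a mean of -0.17 ± 0.28. The aldehyde reductase Akr1a1 (0.07 ± 0.17) and the aldose reductase Akr1b1 (0.06 ± 0.16) were near 0, with their highest value on replicate 2 (0.31 and 0.29).

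None of the 9 measured cytochrome P450 clones passed the threshold (limma), and their means ran from -0.36 to 0.22. An unadjusted p under 0.05 was seen for 2 of them, a cut that at least the 13.6% positive and 15.0% negative calls over all clones also met. All 9 except Cyp2a3 had one sign on every array. Cyp2c23, an arachidonic acid epoxygenase, was at -0.24, -0.70, -0.36 and -0.15. It was negative on every array, with a mean of -0.36 ± 0.24 (SD, n = 4) just short of the threshold (limma adjusted p = 0.0529). Cyp2c12, the female-predominant steroid hydroxylase, was at -0.25, -0.30, -0.52 and -0.04, again negative throughout, with a mean of -0.28 ± 0.20 (limma adjusted p = 0.0896). It lies in a left block, and with the position surface subtracted its values were -0.45, -0.48, -0.87 and -0.41. That gave a mean of -0.55 ± 0.21 (SD, n = 4, limma adjusted p = 0.0217), which made it the only enzyme clone called there, where 11.3% of all clones were negative and 2.83% positive calls. With an array left out as well it stayed negative, and the call held without replicate 2 (-0.58, limma adjusted p = 0.0452) but ended without replicate 1 (-0.59, 0.0563), 3 (-0.45, 0.0826) or 4 (-0.60, 0.0508).

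The other P450 clones had smaller ratios. Cyp1a2, an aryl hydrocarbon receptor target that oxidises caffeine and aromatic amines, was at 0.22 ± 0.17 (SD, n = 4, limma adjusted p = 0.145). Its values of 0.05, 0.39, 0.34 and 0.11 were all positive. Cyp2d2 (0.20 ± 0.13) and Cyp2d4 (0.13 ± 0.06), relatives of the human debrisoquine hydroxylase, were also positive on every array, as were Cyp2c22 (0.16 ± 0.13) and the clone listed for Cyp2c6v1 and Cyp2c6 (0.15 ± 0.08). Cyp2e1, the ethanol-inducible form, was at -0.11, -0.10, -0.22 and -0.09, with a mean of -0.13 ± 0.06. Its adjusted p was 0.325 despite the narrow spread, since the moderated test adds the spread typical of all clones. Cyp2a3 was at 0.15, -0.52, 0.22 and 0.53, a range that spans 0, with a mean of 0.09 ± 0.44. Without replicate 2 its mean was 0.30 ± 0.20 (limma adjusted p = 0.0606). With the position surface subtracted, 3 of the 9 P450 means were above 0 and 6 below, against 6 and 3 before, so the sign of several of these small ratios turned with the treatment of the slide.

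Por, which supplies electrons to every microsomal P450, was at 0.22, 0.01, 0.29 and 0.47 on replicates 1 to 4. No array was below 0, and the mean was 0.25 ± 0.19 (SD, n = 4, limma adjusted p = 0.117). Without replicate 2 it passed at 0.33 ± 0.13 (SD, n = 3, limma adjusted p = 0.0329), but with the position surface subtracted its sign turned, to -0.14 ± 0.08. Fmo1, the flavin monooxygenase that oxidises nitrogen and sulfur atoms of drugs, was at -0.03, -0.75, -0.03 and 0.11. Replicate 2 alone was low, and without it the mean was 0.02 ± 0.08.

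None of the 7 aldehyde dehydrogenase clones passed the threshold (limma). An unadjusted p under 0.05 was seen for 1 of them, a cut that at least the 13.6% positive and 15.0% negative calls over all clones also met. Aldh1a1, a cytosolic retinal dehydrogenase, was at 0.42, -0.20, 0.52 and 0.68. Replicates 1, 3 and 4 were high and replicate 2 was below 0, so the mean was 0.35 ± 0.38 (SD, n = 4, limma adjusted p = 0.110). Without replicate 2 it was 0.54 ± 0.13 (SD, n = 3, limma adjusted p = 0.0103), a positive call, while with the position surface subtracted and all arrays kept it was at 0.01 ± 0.26. Aldh1a2, another retinal dehydrogenase, was at 0.11, 0.35, 0.25 and 0.07, positive throughout, with a mean of 0.19 ± 0.13. It is printed on the right, unlike Aldh1a1 on the left, and with the surface subtracted it was at 0.23 ± 0.15.

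The remaining members of the family had means close to 0 with arrays centred on their medians. Aldh1l1, a formyltetrahydrofolate dehydrogenase, was at 0.08 ± 0.18, Aldh3a2, the fatty aldehyde dehydrogenase of the endoplasmic reticulum, at 0.08 ± 0.21 and Aldh1a3 at 0.05 ± 0.22. With the position surface subtracted Aldh3a2 turned sign, to -0.20 ± 0.19, and Aldh1a3 was at 0.28 ± 0.12 (limma adjusted p = 0.0594), positive on every array. Aldh1a3 has only 1 spot, printed on the right. Aldh2, the mitochondrial enzyme of acetaldehyde oxidation, was at -0.14, -0.18, -0.11 and -0.0031, a mean of -0.11 ± 0.08. The clone listed for Aldh4a1, Iffo2 and Tas1r2 was at -0.03 ± 0.36, high on replicate 2 alone (0.47), and at -0.20 ± 0.19 without that array. Neither epoxide hydrolase passed: microsomal Ephx1 was at 0.09 ± 0.16, with 0.32 on replicate 2 and from -0.0084 to 0.03 on the other arrays, and soluble Ephx2 at -0.10 ± 0.26, from -0.40 on replicate 4 to 0.22 on replicate 1.

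The other 4 listed clones could not be tested. Akr7a3, an aflatoxin aldehyde reductase, Cyp2f4 and Gstt2 gave no ratio on any array at either spot. Ugt2b, the only glucuronosyltransferase clone, had a ratio at 1 of its 2 spots on replicate 1 (-1.81) and none elsewhere, so glucuronidation is not covered. No Cyp3 clone was listed. Of the 84 enzyme spots, 9 had no ratio on any array, or 10.7%, against 13.4% of all spots.

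Enzyme clones on the left of the slide tended to have higher ratios than those on the right. Of the 13 enzyme clones printed only in the left blocks, 9 had a mean above 0, with a median of 0.13. Of the 23 printed only in the right blocks, 10 were above 0, with a median of -0.08. Both positive calls lay on the left and both negative calls on the right. Over all tested clones, the left held 50.7% of the clones, 606 of the 638 called positive and 195 of the 706 called negative. With the position surface subtracted, the medians of the left and right enzyme clones were -0.14 and -0.0008, and clone A and Akr1c14 were no longer called, at -0.57 and -0.53. The value of clone A rested on replicate 2 (-1.35 there) and was -0.31 ± 0.09 without it (SD, n = 3, limma adjusted p = 0.0386), while Akr1c14 was then at -0.36 ± 0.21 (0.0641). With the surface subtracted and all 4 arrays kept, no enzyme clone was a positive call (limma), and 1, Cyp2c12, was a negative one. An unadjusted p under 0.05 was seen there for 4 enzyme clones with a positive mean. The share of all clones at that cut is not given here. With replicate 2 left out as well, 3 were positive (Sult1b1, Aldh1a3 and Cyp2c22) and 3 negative calls (clones A and C and Cyp2c12), where 9.26% and 13.2% of all clones were called. The part of print position in each ratio was not tested beyond this.

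**Figure D3:**
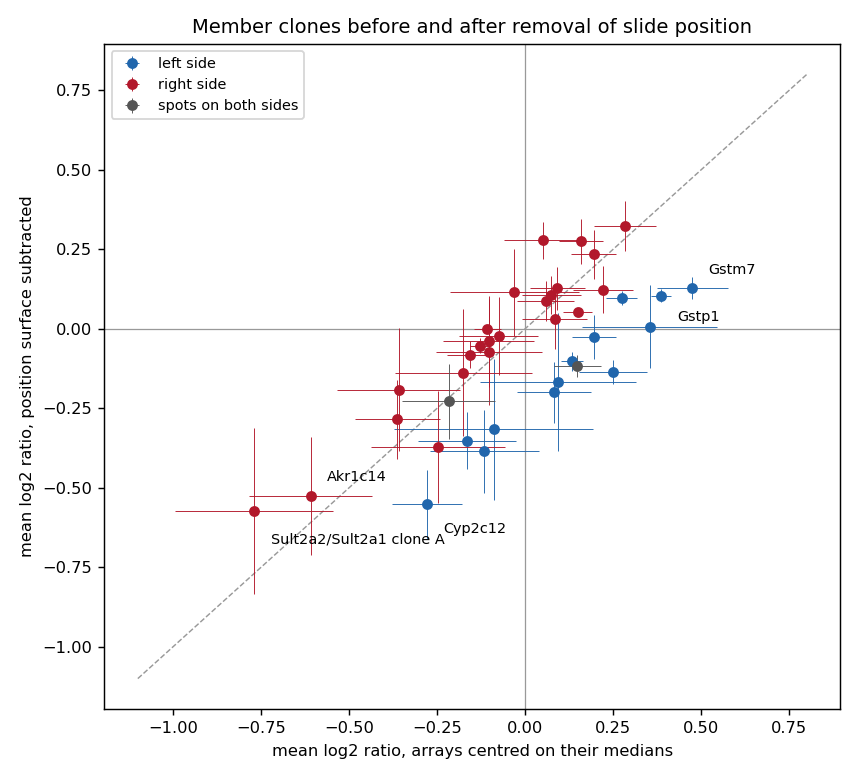
Mean log2 ratio of each of the 38 enzyme clones with arrays centred on their medians (x axis) against the mean with a smooth surface over slide positions subtracted (y axis); bars are 1 standard error over 4 arrays and colours give the side of the slide. Blue left-side clones, Gstm7 and Gstp1 among them, lie below the dashed line of equal values, and clone A and Akr1c14 stay negative on both axes.

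Replicate 2 gave many of these enzymes a ratio of its own. On it 11 of the 38 clones lay more than 0.5 below, and 1 more than 0.5 above, the mean of the other 3 arrays. The 11 were Sult1a1, all 3 Sult2a clones, Cyp2a3, Fmo1, Gsta2, Gstp3, Aldh1a1, Akr1c14 and Mgst1, with differences from -1.05 for Sult1a1 to -0.50 for clone B. On replicates 1 and 3 no enzyme clone was that far from the other arrays, and on replicate 4 there were 2. Over the whole array 26.9% of clones lay that far off on replicate 2 in either direction, against 31.6% of the enzyme clones. By direction, 28.9% of the enzyme clones and 18.9% of all clones lay low, while 1 of the 38 enzyme clones and 379 of all 4704 lay high. The difference between these shares was not tested. Clones of hepatocyte markers also lay low there: over 10 clones of 9 genes, albumin among them, the median was -0.93 on replicate 2 and -0.05, -0.23 and -0.35 on replicates 1, 3 and 4. On replicate 2, 8 of the 10 lay below -0.5, while Rbp4 was at -0.24 and Hpd at 0.27. The share of all clones below -0.5 on that array is not given here. The part of these markers in the enzyme ratios was not tested. Fewer hepatocytes, less of these RNAs per cell and a property of this 1 array cannot be told apart. With replicate 2 left out, 5 enzyme clones were positive calls (Gstm7, Gstp1, Aldh1a1, Mgst3 and Por) and 2 negative ones (clone A and Akr1c14), where 18.5% and 19.0% of all clones were called.

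**Figure D4:**
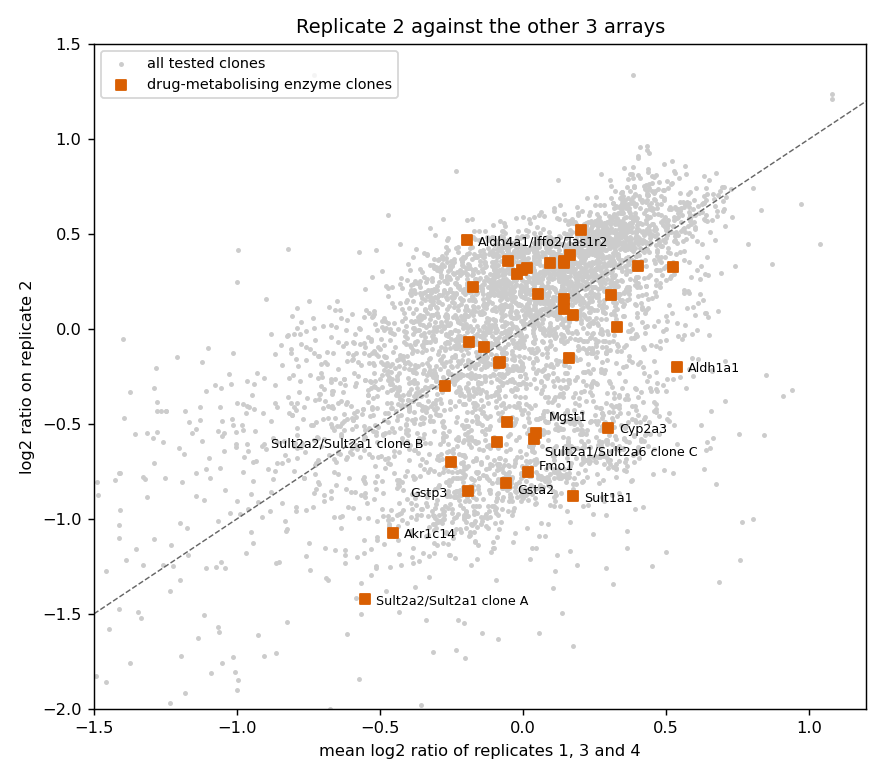
Log2 ratio on replicate 2 (y axis) against the mean of replicates 1, 3 and 4 (x axis) for the 38 enzyme clones (orange squares) and all tested clones (grey points, 61 of which fall outside the axes); the dashed line marks equal values. Named enzymes differ by more than 0.5, and all except the Aldh4a1/Iffo2/Tas1r2 clone lie below the line, within the grey cloud.

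Of 112 other genes of drug metabolism, among them cofactor suppliers, regulators, transporters and further P450 families, 30 were measured under 1 gene name, and 3 were positive and 4 negative calls, near the 13.6% and 15.0% of all clones. The positive ones were Tst, a mitochondrial sulfurtransferase that detoxifies cyanide, at 0.56 ± 0.16 (SD, n = 4), Hsd11b1, which regenerates active glucocorticoid, at 0.48 ± 0.23 and Cyp4f1 at 0.34 ± 0.15. Cyp11a1, which starts steroid synthesis, followed without passing at 0.33 ± 0.20. The negative calls were Cyp4f4 (-0.70 ± 0.25), Dpep1, a dipeptidase of glutathione conjugates (-0.61 ± 0.39), Gss, the glutathione synthetase (-0.40 ± 0.14), and Nfe2l2. With the position surface subtracted no positive and 5 negative clones were called among the 30, against 2.83% and 11.3% of all clones. The median of the 30 was 0.08, against -0.01 over all clones, so this wider list too stood near 0.

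Markers of other cells were few on the array and went both ways. The blood cell gene Hbb was a negative call at -0.88 ± 0.24 (SD, n = 4), as was Coro1a of leukocytes at -0.73 ± 0.17. Of 11 clones of stellate cell and fibroblast markers 4 were positive and 2 negative calls, of 3 leukocyte and Kupffer cell clones none was positive and 2 were negative, and of 3 red blood cell clones likewise. The stellate gene Col1a2 was called both ways, with a clone on the left at 0.39 ± 0.17 and another on the right at -0.58 ± 0.38. With the position surface subtracted these clones were at 0.32 and -0.38, and neither was called. One of 2 endothelial clones, Kdr at 0.40 ± 0.21, and the only cholangiocyte clone, Spp1 at 0.43 ± 0.11, were positive calls. The other endothelial clone, Cdh5, was at -0.85 ± 0.85 and negative on every array, without a call (limma adjusted p = 0.0541). Among the 10 hepatocyte clones 3 were negative calls and none was positive. By mean ratio 8 were below 0 and 2 above, Rbp4 at 0.58 ± 0.55 (limma adjusted p = 0.0589) and Hpd at 0.10 ± 0.14. With the position surface subtracted none of these marker clones was a positive call (limma), Spp1 being at 0.16 and the endothelial gene Kdr at 0.14. Negative calls then numbered 2 among the leukocyte, 2 among the red blood cell, 2 among the stellate and 1 among the hepatocyte clones. Over all clones the shares called were the 13.6% and 15.0% given above, and 2.83% and 11.3% with the surface. Their part in the enzyme ratios was not tested.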

How the data were processed

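Liver RNA of 4 treated rats was compared with 1 control pool on 4 two-colour cDNA arrays. The authors' deposited table names no unit. The values the authors deposited were taken as log10 ratios, because raising 10 to them gave whole thousandths, within 0.02, at 99.99% or more of the spots on each array. How the authors corrected and normalized the scans is not stated in the labels used here. The most repeated value of each array (1171 to 1189 spots) was taken as a missing ratio. Values were converted to log2, spots of one listed clone averaged, and each array centred on its median. Names come from GEO's platform annotation, which lists 5252 of the 7688 probes. Symbols were updated by Entrez number to GRCr8.

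Clones with a ratio on all 4 arrays (4704) were tested against 0 with limma 3.58.1 in R 4.3.3, two-sided, with Benjamini-Hochberg adjustment at 0.05; the script was tested on simulated data. The test leaves out the spread of the control rats. No exact sign-flip test of 4 arrays can go below p = 0.125. The position surface is a robust loess fit (span 0.05, degree 1, 4 iterations) on 8 inferred blocks of 31 by 31 spots; lag 31 had the highest autocorrelation of lags 29 to 33 on replicates 1, 2 and 4, and lag 30 on replicate 3.

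Members, lists and tests were chosen with earlier results of these data known. Named were all called clones, the 2 uncalled ones with the smallest p in each family and all clones of a gene with several; the other members were added so that each is accounted for, as were values of cell markers. Alternatives changed centring, normalization, slide position, missing values, the row unit, the variance model or the arrays kept; keeping spots of a clone in different blocks apart was added after seeing the data.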

Additional observations from a re-analysis of the deposited data

Results flagged for a closer look

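Of the 38 enzyme clones, 6 had 1 array far from the other 3, by the gap to the nearest array as a share of the whole range (Dixon's test for 4 samples at its 95% critical value). Chance flags about 1 in 20 clones, and over all 4704 clones 8.53% were this far apart, against 15.8% of the enzyme clones. On replicate 2, Fmo1 was at -0.75, Mgst1 at -0.55 and the Sult2a1/Sult2a6 clone C at -0.58, all lower than on the other arrays. Cyp2c22 at 0.35 and Ephx1 at 0.32 were higher there than on the other arrays. Cyp2e1 was lowest on replicate 3, at -0.22. Replicate 2 was the most distant of the 4 arrays for 25 of the 38 clones (65.8%) and for 50.2% of all clones.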

How the results depend on the processing

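With 2 positive and 2 negative calls among the enzyme clones (limma), single clones moved the counts by over 1.5 times. Positive calls numbered 4 with one spread for all arrays (16.5% of all clones), 4 with block medians subtracted (8.08%), 5 with the repeated value kept (17.5%), 4 with every spot its own row (13.6%) and 5 with array weights (24.4%). They numbered 0 with the position surface subtracted (2.83%; 4 at an unadjusted p under 0.05), also with the blocks of a clone kept apart (2.77%), and 0 to 5 without 1 replicate (6.53%, 18.5%, 2.1% and 2.83% of all clones without replicates 1 to 4). Negative calls numbered 4 with quantile normalization (20.2%), 10 with every spot its own row (15.4%), 5 with array weights (25.7%), and 1 with the surface (11.3%), with the surface and blocks apart, with 1 row per gene (15.3%) and with only clones of 1 symbol. They numbered 1 to 2 without 1 replicate (8.23%, 19.0%, 6.84% and 7.47%). With the surface subtracted and replicate 1, 3 or 4 left out, both counts were 0, against 0.233% to 0.276% positive and 3.64% to 6.32% negative over all clones. In those fits 2 to 4 enzyme clones were positive and 5 to 8 negative at an unadjusted p under 0.05. The share of all clones at the unadjusted cut is not given here. With the surface subtracted and replicate 2 left out, both counts of calls were 3. Of 316 means of 21 named clones, 260 kept their sign and side of the threshold, 29 newly passed, 14 no longer passed and 13 changed sign; the cause was not tested. With block medians subtracted, Ephx2 was at 0.075, Fmo1 at 0.0024 and Mgst1 at 0.0757. Mgst1 was at 0.0009 with the repeated value kept and 0.005 with array weights, where clone C was at 0.0019. Por was at -0.1362 with the surface subtracted. The block 5 spots of clone B were at 0.2567 and 0.3571 as rows of their own. Without 1 replicate, Akr1a1 ranged from -0.0043 to 0.1161, Fmo1 from -0.271 to 0.0156, Mgst1 from -0.1628 to 0.0458 and clone C from -0.1775 to 0.0392, each turning sign without replicate 2. No intensities were used, so signal over background is unknown. No paired analysis was possible because there is 1 group of arrays.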
